A study of Mus musculus with 24 samples.

Results

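The genes described here are the enzymes of glycolysis, the main glucose transporters and a set of genes that cells raise when oxygen is short. A list of 32 such genes was fixed by name, and 29 of them were found as a gene with its own probe set among 19938 genes measured on Affymetrix Mouse Gene 1.0 ST arrays. Where several probe sets named a gene, the brightest on average was used. Gpi1 and Eno1 had no entry in the annotation table used here, and all 25 probe sets that list Gapdh also list other genes, so these 3 members were not analysed here.

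Mouse embryonic stem cells (ESCs) without Eed were compared with wild-type (WT) ESCs before and during differentiation. EED belongs to the core of Polycomb repressive complex 2, a histone H3 methyltransferase that keeps many developmental genes silent. The 24 arrays held 4 cell clones on 3 days with 2 arrays each: Eed knockout (KO) clones in E14 and in J1 cells, and WT clones of J1 and of V6.5. On day 0 the cells were undifferentiated ESCs, and on days 3 and 7 they were embryoid bodies (EBs), floating aggregates in which ESCs differentiate.

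All clones had been expanded in serum with LIF, a cytokine that holds ESCs undifferentiated, on inactivated fibroblast feeder cells. EBs of both genotypes were started from feeder-depleted ESCs in hanging drops in a medium with less serum and no LIF, and were moved to suspension culture after 2 days. The labels describe no oxygen or glucose treatment, so every comparison is between genotypes, lines or days. Each genotype and line is 1 named ESC line, and J1 is the only line present as both KO and WT. The labels do not say whether the 2 arrays of a clone and day came from separate cultures, so the spread between them may be technical. Within J1 and between lines, the p-values measure only that spread. In the comparisons of genotypes and of days they pool it with the spread between the 2 lines of a genotype. With 2 lines per genotype, the 4 arrays of a genotype and day are not independent replicates. The arrays measured bulk RNA, in which fewer cells of a type and less RNA per cell cannot be told apart.

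Glycolysis splits glucose into pyruvate. Its preparatory steps spend ATP and are run by hexokinase, phosphofructokinase and aldolase, and its payoff steps return ATP through phosphoglycerate kinase and pyruvate kinase. Lactate dehydrogenase interconverts pyruvate and lactate, and pyruvate dehydrogenase kinases hold pyruvate back from mitochondria. Hypoxia-inducible factor (HIF) raises many of these genes when oxygen falls, and the prolyl hydroxylases that mark HIF for destruction are themselves HIF targets. Naive mouse ESCs are known to use both glycolysis and respiration, and the balance is known to shift as they differentiate.

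The HIF binding site has the core letters ACGTG or GCGTG. RefSeq promoter windows were at hand for 27 of the 29 members, without Slc2a3 and Ndrg1, and the 250 bases before each start were searched on both strands. ACGTG was present for 18 of these 27 genes (66.7%) and for 18.5% of all 27025 genes with a window. ACGTG or GCGTG was present for 25 of 27 genes (92.6%) and for 41.5% of all genes. The list was chosen to include HIF targets, so setting its share beside that of all genes is not a test. A gene counted when any of its windows matched, with 38 windows for the 27 members and 32851 for all genes. The letters are a description and not evidence of binding. The 130 bases before the start are shown for 4 members on which the results turn, with the core letters of either strand in capitals (5′ to 3′ along the gene, build GRCm38.p6). These are Ldhb on the minus strand at chr6:142507958-142508087, Egln1 on the minus strand at chr8:124949255-124949384, P4ha1 on the plus strand at chr10:59323166-59323295 and P4ha2 on the plus strand at chr11:54100794-54100923.
Ldhb: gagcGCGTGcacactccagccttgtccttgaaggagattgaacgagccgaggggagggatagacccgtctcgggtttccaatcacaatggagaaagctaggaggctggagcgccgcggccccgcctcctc
Egln1: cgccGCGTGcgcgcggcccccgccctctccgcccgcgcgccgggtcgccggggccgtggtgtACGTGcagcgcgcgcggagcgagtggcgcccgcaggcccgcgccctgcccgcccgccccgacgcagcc
P4ha1: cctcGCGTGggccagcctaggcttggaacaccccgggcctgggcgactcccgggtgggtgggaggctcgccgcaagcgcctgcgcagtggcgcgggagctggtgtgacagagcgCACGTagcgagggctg
P4ha2: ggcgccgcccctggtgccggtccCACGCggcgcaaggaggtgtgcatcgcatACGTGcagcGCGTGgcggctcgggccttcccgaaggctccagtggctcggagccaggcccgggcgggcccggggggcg
The Ldhb window held 1 match, the Egln1 and P4ha1 windows 2 each and the P4ha2 window 3.

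Values are log2 expression values made by the authors with RMA, so a difference of 1 is 2-fold. A gene passed when its limma p-value, adjusted with the Benjamini-Hochberg method over all 19938 genes, was under 0.05. Eed itself was between 5.76 and 7.48 on the 12 KO arrays and between 9.37 and 11.02 on the 12 WT arrays. The 2 arrays of a clone and day correlated with r between 0.990 and 0.995, except those of WT J1 on day 7 (r = 0.962), where 1256 genes differed by 2-fold or more and the remaining pairs had 21 to 163 such genes. Of the members, Ddit4 and Pdk3 were 2-fold apart in that pair. The genotypes also differed in markers of other cells. On day 0 the mean of 10 fibroblast markers lay between 8.53 and 9.65 in KO and between 8.05 and 8.46 in WT. Of the 10, 4 passed higher in KO, among them Thbs1, Lox and Fbln2 (1.5, 1.46 and 1.03), where 1.51% of all genes passed higher. From day 0 to day 3, 6 of the 10 fell in KO, where 3.24% of all genes fell. In WT, Lox, Thbs1, Vim and Fbln2 fell over that interval (-1.31, -1.06, -0.88 and -0.77), where 5.59% of all genes fell. On day 7 the ESC marker Pou5f1 lay between 11.49 and 11.97 in KO and between 7.95 and 8.98 in WT, and the mean of 7 measured red blood cell markers lay between 5.94 and 6.59 in KO and between 9.66 and 11.27 in WT. The part of these markers in the results on day 0, in the changes of both genotypes from day 0 to day 3 and in the results on day 7 was not tested.

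In ESCs and on day 3, few members differed between genotypes. On day 0, 1 of 29 passed, higher in KO, where 2.02% of all genes passed and 1.51% passed higher. On day 3, 2 passed higher and 1 lower, where the background was 2.18%, with 1.58% higher and 0.597% lower. On day 7, 3 passed higher (Ldhb, Hk2 and Pdk1) and 5 lower (Egln1, Aldoc, Vegfa, P4ha2 and Eno2), where 16.3% of all genes passed, 10.1% higher and 6.23% lower. The median difference of the 29 members on day 7 was -0.15 against -0.04 for all genes, with 21 members below 0. Of the 8 members, 3 also differed by at least 2-fold (Ldhb, Egln1 and Aldoc), against 4.36% of all genes. On days 0 and 3 none of the calls reached 2-fold, where 0.552% and 0.757% of all genes did.

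**Figure D1:**
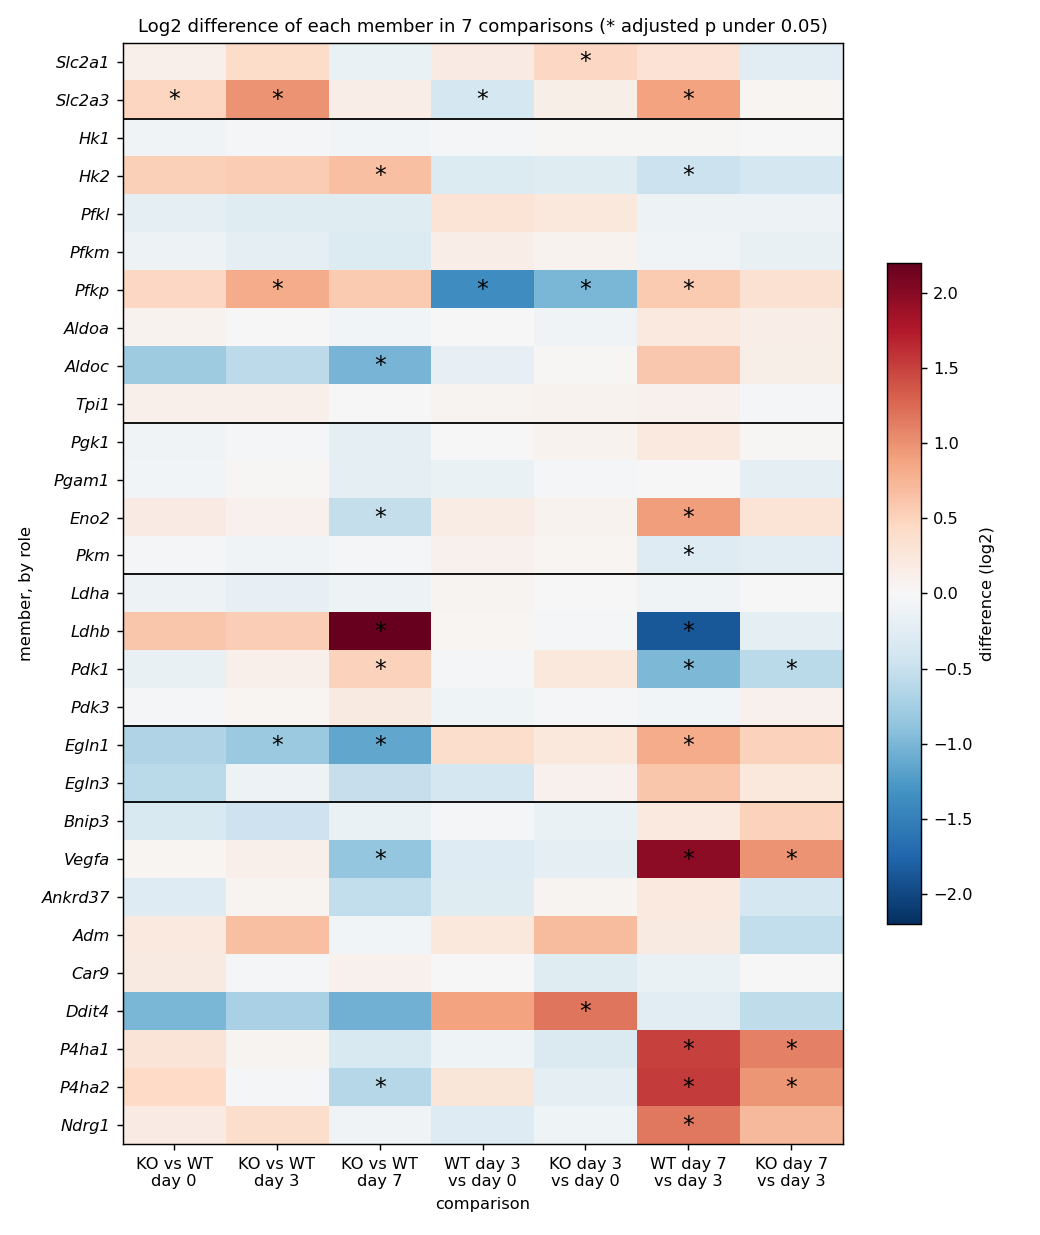
Log2 difference of each of the 29 members (rows, by role) in 7 comparisons (columns); red is higher and blue lower in the first-named group, and asterisks mark an adjusted p under 0.05. The KO against WT columns hold 1, 3 and 8 asterisks on days 0, 3 and 7, and the column of WT from day 3 to day 7 holds 12.

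The largest difference was that of Ldhb, the heart-type subunit of lactate dehydrogenase. On day 7 its values were 12.05 and 11.79 in KO E14, 11.40 and 11.57 in KO J1, 9.98 and 9.69 in WT J1, and 9.13 and 9.27 in WT V6.5. All 4 KO arrays were above all 4 WT arrays. The difference was 2.19 (SE 0.202, adjusted p = 5.2e-08), or 4.55-fold. It was 1.65 in the J1 pair and 2.72 between KO E14 and WT V6.5. Leaving out any clone or array kept it between 1.87 and 2.50 and past the threshold.

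Before day 7 the genotypes were closer. On day 0 Ldhb read 12.01, 12.08, 11.95 and 11.75 in KO (E14, then J1) against 11.43, 11.48, 11.39 and 11.05 in WT (J1, then V6.5), a difference of 0.61 (adjusted p = 0.13). On day 3 it read 12.33, 12.24, 11.41 and 11.72 in KO against 11.32, 11.10, 11.55 and 11.59 in WT, a difference of 0.54 (adjusted p = 0.22). The day 0 arrays did not overlap between genotypes, and the day 3 arrays did. From day 3 to day 7 Ldhb fell in WT by 1.87 (SE 0.172, adjusted p = 1.8e-08), and in KO the change was -0.22 (adjusted p = 0.43). These changes differed by 1.65 (SE 0.243, adjusted p = 0.00016). Without the clone WT V6.5 that difference was 1.15 and did not pass (adjusted p = 0.081).

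Ldha, the muscle-type subunit that works beside Ldhb, differed by -0.11 on day 7 and did not pass. Pdk1, a kinase that shuts pyruvate dehydrogenase and a HIF target, read 10.68 and 10.10 in KO E14, 10.46 and 10.73 in KO J1, 9.80 and 9.89 in WT J1, and 10.35 and 9.94 in WT V6.5 on day 7. The genotypes overlapped through 1 WT V6.5 array and 1 KO E14 array. The difference was 0.50 (SE 0.168, adjusted p = 0.043), 0.75 in the J1 pair and 0.25 in the other pair, and it did not pass without KO J1 (adjusted p = 0.25), WT J1 (0.26) or KO E14 (0.051). It was also lost with averaged arrays (0.086), with median centring (0.083), with repeated quantile normalization (0.07) and in 7 runs without 1 array (0.052 to 0.12). Pdk1 fell from day 3 to day 7 in both genotypes, by 0.98 in WT (SE 0.143, adjusted p = 1.2e-05) and by 0.60 in KO (SE 0.143, adjusted p = 0.0078). The fall in KO did not pass without KO E14 (adjusted p = 0.46) or without KO E14 replicate 2 of day 7 (adjusted p = 0.055). Pdk3, a related kinase, differed by 0.20 on day 7 and did not pass. Of the 4 genes of lactate and pyruvate use, 2 (Ldhb and Pdk1) were thus higher in KO on day 7, beside 10.1% of all genes. The same 2 fell in WT from day 3 to day 7, beside 15.4% of all genes, and the changes of Ldha (-0.08) and Pdk3 (-0.06) did not pass.

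Egln1 encodes the main prolyl hydroxylase that marks HIF for destruction. It was lower in KO on every day. On day 0 its values were 8.88, 9.02, 8.78 and 8.52 in KO against 9.61, 9.10, 9.71 and 9.44 in WT, in the clone order used for Ldhb. On day 3 they were 8.75, 9.29, 8.91 and 9.17 in KO against 9.91, 10.14, 9.99 and 9.38 in WT. On day 7 they were 9.72, 9.34, 9.34 and 9.70 in KO against 10.94, 10.44, 10.78 and 10.53 in WT. The genotypes did not overlap on any day.

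The Egln1 difference was -0.67 on day 0 (adjusted p = 0.080, not passed), -0.82 on day 3 (SE 0.195, adjusted p = 0.025) and -1.14 on day 7 (SE 0.195, adjusted p = 0.00021), which is 2.21-fold. On day 7 it was -1.17 in the J1 pair and -1.12 in the other pair, and it passed under all alternatives run. On day 3 it did not pass without KO E14 (adjusted p = 0.22), without KO J1 (adjusted p = 0.11) or without WT J1 (adjusted p = 0.085). It was also lost with the arrays of a clone and day averaged (adjusted p = 0.086). Of the day 3 arrays, leaving out replicate 1 of KO E14 (0.083), of KO J1 (0.061) or of WT V6.5 (0.069), or replicate 2 of WT J1 (0.077), lost it as well. Egln1 rose in WT from day 3 to day 7 by 0.81 (SE 0.166, adjusted p = 0.00052; 0.068 without WT V6.5), and its change in KO was 0.50 (adjusted p = 0.058). Egln3, a second HIF prolyl hydroxylase, differed by -0.50 on day 7 and did not pass (adjusted p = 0.25).

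Hif1a, the oxygen-regulated subunit of HIF, differed between genotypes by 0.03, 0.08 and -0.04 on days 0, 3 and 7 and passed on none of them. Of these differences, each changed sign in some alternatives. Among 9 HIF regulators fixed as a list, Epas1 (HIF-2 alpha) was higher in KO on day 3 by 1.42 (adjusted p = 0.040). Hif3a was lower on that day by 0.80 on the log2 scale. Of all genes, 1.58% passed higher and 0.597% lower on day 3. Neither Epas1 nor Hif3a passed on day 0 or day 7. On day 7 Cited2, a HIF-induced protein that competes with HIF for its coactivator, was lower in KO, with a difference of -0.82 (adjusted p = 0.00034). On that day 6.23% of all genes passed lower.

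**Figure D2:**
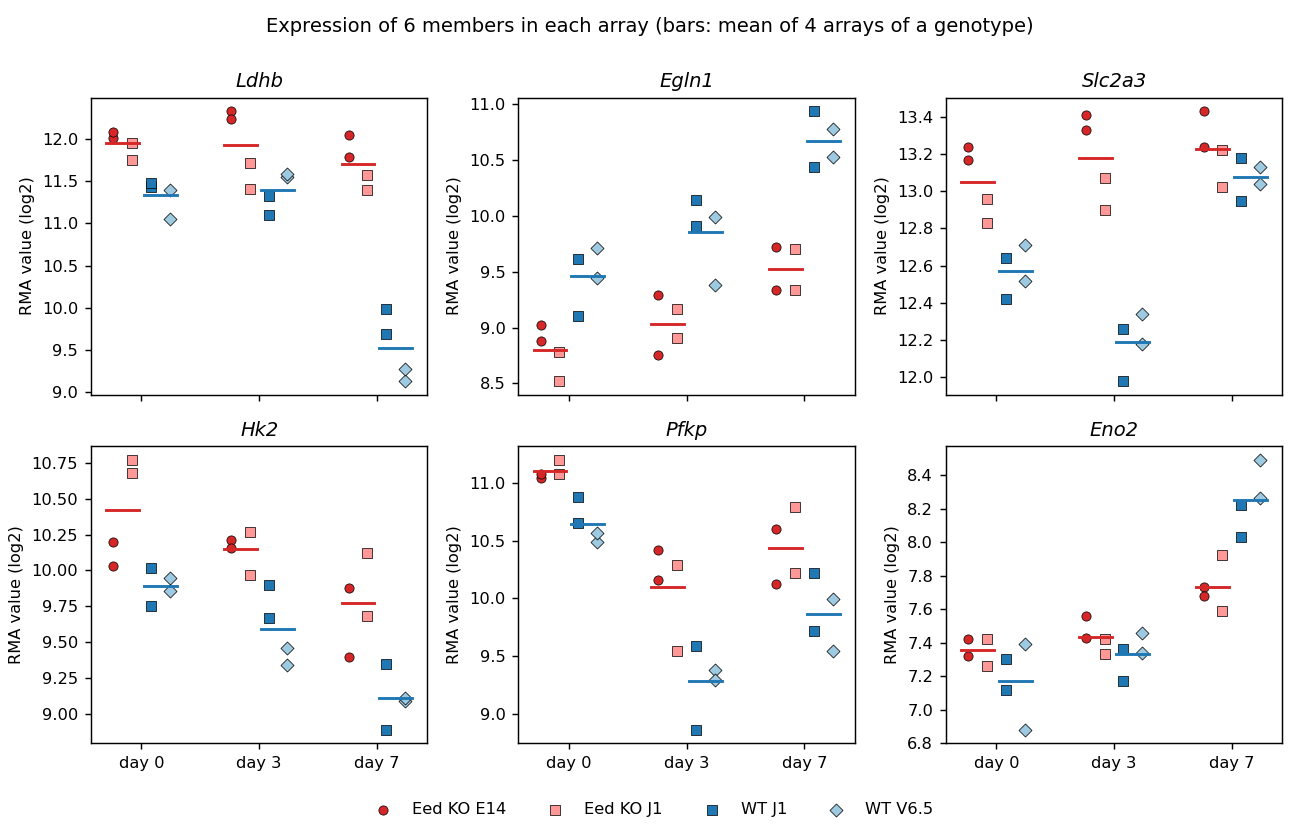
RMA values (log2) of Ldhb, Egln1, Slc2a3, Hk2, Pfkp and Eno2 on each of the 24 arrays by day; points are arrays, coloured by clone, and bars are the mean of the 4 arrays of a genotype. Ldhb in WT dropped to between 9.13 and 9.98 on day 7, and Egln1 in WT was above KO on each day.

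Slc2a3 encodes GLUT3, a glucose transporter with high affinity for glucose. On day 3 its values were 13.33 and 13.41 in KO E14, 12.90 and 13.07 in KO J1, 12.26 and 11.98 in WT J1, and 12.34 and 12.18 in WT V6.5. No KO array came as low as the highest WT array. The difference was 0.99 (SE 0.123, adjusted p = 5.8e-05), or 1.98-fold. Its adjusted p stayed under 0.05 under all alternatives run, though the value just misses 2-fold. It was 0.86 within line J1 (adjusted p = 0.0026), a call lost in 2 runs without 1 array (0.067 and 0.072).

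The Slc2a3 difference was present but smaller in ESCs and gone from the calls on day 7. On day 0 the arrays read 13.24, 13.17, 12.83 and 12.96 in KO against 12.42, 12.64, 12.71 and 12.52 in WT, a difference of 0.48 (SE 0.123, adjusted p = 0.041). That call was lost without KO E14 (adjusted p = 0.56), WT J1 (0.11) or WT V6.5 (0.13), with the arrays centred on their medians (0.091) and with the arrays of a clone and day averaged (0.25). It was lost too in 9 runs without 1 array (0.05 to 0.12). On day 7 they read 13.43, 13.24, 13.02 and 13.22 in KO against 13.18, 12.95, 13.04 and 13.13 in WT, a difference of 0.15 that did not pass. The KO and WT arrays overlapped on that day.

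In WT, Slc2a3 fell from day 0 to day 3 by 0.38 (SE 0.104, adjusted p = 0.017) and rose from day 3 to day 7 by 0.89 (SE 0.104, adjusted p = 6.5e-07). The fall was lost without WT J1 (adjusted p = 0.24) or WT V6.5 (0.27), with no block for the clone (0.051) and with averaged arrays (0.072). Leaving out replicate 1 of WT V6.5 on day 0 (0.067), or replicate 2 of WT J1 on day 0 (0.052) or day 3 (0.087), lost it too. In KO the change from day 3 to day 7 was 0.05 and did not pass. The changes from day 3 to day 7 differed by -0.84 (SE 0.148, adjusted p = 0.0011), and this did not pass without WT V6.5 (adjusted p = 0.069). Slc2a1, the more widely expressed transporter GLUT1, read 13.32, 13.42, 13.35 and 13.42 in KO on day 3 against 13.14, 12.80, 12.95 and 13.01 in WT. Its arrays did not overlap on that day, but the difference of 0.40 did not pass (adjusted p = 0.22). In KO it rose from day 0 to day 3 by 0.46 (SE 0.129, adjusted p = 0.033). This was lost without KO E14 (adjusted p = 0.59), KO J1 (0.24) or WT V6.5 (0.061), with averaged arrays (0.073) and in 7 runs without 1 array (0.062 to 0.11).

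Among the preparatory enzymes, Hk2, the inducible hexokinase that binds mitochondria, read 9.88 and 9.40 in KO E14, 9.68 and 10.12 in KO J1, 9.35 and 8.89 in WT J1, and 9.09 and 9.11 in WT V6.5 on day 7. Each KO array was above each WT array, as also on days 0 and 3. The day 7 difference was 0.66 (SE 0.178, adjusted p = 0.012), or 1.58-fold, and did not pass without KO J1 (adjusted p = 0.081), without WT V6.5 (adjusted p = 0.061) or with averaged arrays (adjusted p = 0.071). On days 0 and 3 the differences of 0.52 and 0.56 did not pass, with adjusted p of 0.15 and 0.12. In the J1 pair the day 0 difference of 0.84 passed (adjusted p = 0.028), and it was lost in each of the 4 runs without 1 J1 array of day 0 (0.066 to 0.27) and with repeated quantile normalization (0.052).

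Pfkp, the platelet-type phosphofructokinase, changed most between ESCs and day 3 EBs. On day 0 it read 11.04, 11.08, 11.08 and 11.20 in KO against 10.88, 10.65, 10.49 and 10.57 in WT. On day 3 it read 10.16, 10.42, 9.54 and 10.29 in KO against 9.59, 8.86, 9.38 and 9.29 in WT. Every array of day 3 was below every array of day 0. The fall was 1.37 in WT (SE 0.181, adjusted p = 1.8e-05) and 1.0 in KO (SE 0.181, adjusted p = 0.0011; 0.14 without KO J1). On day 3 KO was above WT by 0.82 (SE 0.213, adjusted p = 0.042), with KO J1 replicate 1 below the highest WT array. That difference did not pass without KO E14 (adjusted p = 0.56), WT J1 (0.065) or WT V6.5 (0.078), with averaged arrays (0.094), with the arrays centred on their medians (0.062) or with dim genes left out (0.052). It was also lost in 10 runs without 1 array (0.05 to 0.16).

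Aldoc, the brain-type aldolase, was lower in KO on day 7. Its arrays read 9.14 and 9.13 in KO E14, 8.39 and 9.63 in KO J1, 10.29 and 10.66 in WT J1, and 9.63 and 9.82 in WT V6.5. The highest KO array and the lowest WT array met at 9.63. The difference was -1.03 (SE 0.295, adjusted p = 0.018), -1.46 in the J1 pair and -0.59 in the other. It did not pass without KO E14 (adjusted p = 0.092), without WT J1 (adjusted p = 0.19), without KO J1 replicate 1 of day 7 (adjusted p = 0.065) or without WT J1 replicate 2 of day 7 (adjusted p = 0.052). The 2 WT lines also differed, with V6.5 below J1 over all days (difference -0.69), a call lost in 9 runs without 1 array.

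The other preparatory enzymes showed small differences on day 7. Pfkl, the liver-type phosphofructokinase, differed by -0.26, Pfkm, the muscle type, by -0.30, Pfkp by 0.57 and Aldoa, the muscle-type aldolase, by -0.06, and none of them passed. Tpi1, triosephosphate isomerase, differed by 0.01 and did not pass. Hk1, the constitutive hexokinase, had probe sets that disagreed. The one used, with the highest mean (13.08), matched 1 transcript accession, and a further 16 probe sets list Hk1 together with Rpl17, a ribosomal protein gene. A second Hk1 probe set, with a mean of 8.21 and 8 accessions, was up to 5.44 lower. With that second probe set Hk1 rose in WT from day 3 to day 7 by 0.46 (SE 0.168, adjusted p = 0.040), and its KO against WT difference on day 7 was 0.05. The level of Hk1 is therefore uncertain in these data.

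Of the 4 payoff enzymes, Pgk1 (phosphoglycerate kinase), Pgam1 (phosphoglycerate mutase) and Pkm (pyruvate kinase) differed between genotypes on day 7 by -0.20, -0.19 and -0.03, and none of these 3 passed. Over all 24 arrays Pgk1 ranged from 12.39 to 12.97, Pkm from 12.08 to 12.61 and Pgam1 from 11.77 to 12.44. Pkm fell in WT from day 3 to day 7 by 0.29 (adjusted p = 0.026). That call was lost without WT V6.5 (adjusted p = 0.56), with averaged arrays (0.059) and in 5 runs without 1 array (0.053 to 0.11). In the J1 pair Pgk1 was lower in KO on day 7, with a difference of -0.43 (adjusted p = 0.027), which was lost in each of the 4 runs without 1 J1 array of day 7 (adjusted p 0.054 to 0.19).

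Eno2, the neuron-type enolase and a known HIF target, was the payoff enzyme that passed on day 7. It read 7.73 and 7.68 in KO E14, 7.59 and 7.92 in KO J1, 8.22 and 8.03 in WT J1, and 8.49 and 8.26 in WT V6.5. All 4 WT arrays exceeded all 4 KO arrays. The difference was -0.52 (SE 0.127, adjusted p = 0.0061) and did not pass without KO E14 (adjusted p = 0.086). In WT, Eno2 rose from day 3 to day 7 by 0.92 (SE 0.108, adjusted p = 6.9e-07), and in KO its change was 0.30 (adjusted p = 0.083). These changes differed by -0.62 (SE 0.153, adjusted p = 0.017). That difference of changes did not pass without KO E14 (adjusted p = 0.28), KO J1 (adjusted p = 0.083) or WT V6.5 (adjusted p = 0.16), nor without replicate 1 of WT V6.5 on day 7 (adjusted p = 0.052).

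The step from day 3 to day 7 moved more members than any other interval. In WT, 8 members rose and 4 fell, where 29.5% of all genes changed, 14.2% upward and 15.4% downward. In KO, 3 rose and 1 fell, where 10.2% of all genes changed, 6.25% upward and 3.94% downward. The median change was 0.21 over the members and -0.04 over all genes in WT, and -0.00 over the members and -0.06 over all genes in KO. From day 0 to day 3, 2 members fell in WT, where 11.7% of all genes changed and 5.59% fell. In KO over that interval 2 rose and 1 fell, where 6.36% changed, 3.13% upward and 3.24% downward. By the 2-fold rule, 5 members and 6.23% of all genes changed in WT from day 3 to day 7, and 1 member and 2% in KO. From day 0 to day 3 that rule left 1 member and 2.04% of all genes in WT, and 1 member and 1.17% in KO.

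Between day 3 and day 7, KO and WT changed unequally for 3 members, with KO minus WT above 0 for Ldhb and below 0 for Slc2a3 and Eno2. The background was 5.26% of all genes, 2.96% above 0 and 2.3% below, and by the 2-fold rule 1 member (Ldhb) and 2.56% of all genes remained. For the interval from day 0 to day 3, limma called 0 members and 0.0752% of all genes. At an unadjusted p under 0.05 it named 1 member, Slc2a3 (difference of changes 0.51, adjusted p = 0.40), and P4ha2 (-0.49) and Egln3 (0.48) had the next largest values.

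**Figure D3:**
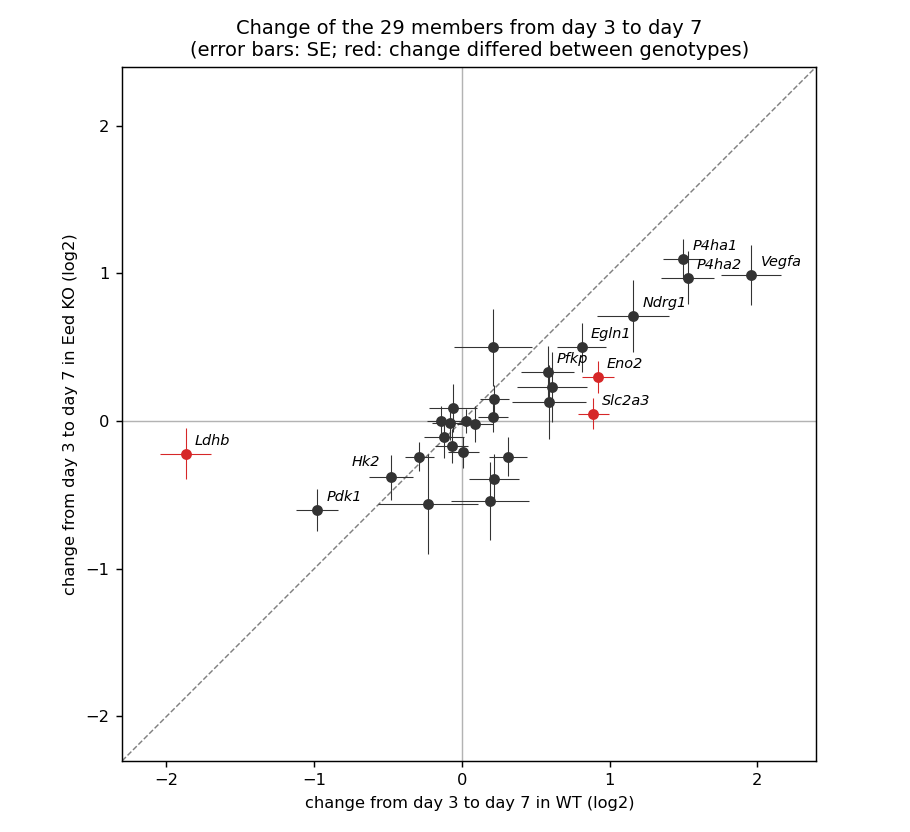
Change of each of the 29 members from day 3 to day 7 in WT (x axis, log2) and in KO (y axis, log2); error bars are SE, the dashed line marks equal change, and red points passed the test of the difference between genotypes. Ldhb lies far above the line (-1.87 in WT, -0.22 in KO), and Slc2a3 and Eno2 lie below it.

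Among the 9 other HIF targets, 4 rose in WT from day 3 to day 7 and 3 rose in KO, beside 14.2% of all genes in WT and 6.25% in KO. Vegfa, the growth factor that drives vessel formation, read 8.30, 8.61, 8.61 and 7.89 in WT on day 3 and 9.95, 10.35, 10.58 and 10.35 on day 7. In KO it read 8.75, 8.45, 8.15 and 8.52 on day 3 and 9.93, 9.81, 9.0 and 9.11 on day 7. Within each genotype the days did not overlap. The rise was 1.96 in WT (SE 0.204, adjusted p = 1.2e-07), or 3.88-fold, and 0.99 in KO (SE 0.204, adjusted p = 0.0023; 0.27 without KO E14).

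The difference of these Vegfa rises, -0.96, just missed the threshold (adjusted p = 0.053). It is not counted as a call here. It passed with the clone as a fixed block (adjusted p = 0.032), and without WT V6.5 no member passed this test. On day 7 all KO arrays were below all WT arrays, by 0.85 on the log2 scale (SE 0.240, adjusted p = 0.016). The KO J1 arrays were the lowest, and without that clone the day 7 difference was -0.44 and did not pass (adjusted p = 0.38). Without KO J1 replicate 1 of day 7 the adjusted p was 0.052, without WT V6.5 it was 0.094, and with averaged arrays it was 0.062. The mean of 7 endothelial markers lay between 7.01 and 9.38 on the KO arrays and between 7.44 and 9.96 on the WT arrays of day 7. Of the 7, Kdr and Tie1 passed lower in KO (-2.23 and -1.16) and the rest did not pass, where 6.23% of all genes passed lower. From day 3 to day 7 all 7 rose in WT, where 14.2% of all genes rose. In KO, Cdh5 and Emcn rose, where 6.25% of all genes rose. The part of these markers in the Vegfa difference and rises was not tested.

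P4ha1 and P4ha2 encode the catalytic subunits of collagen prolyl 4-hydroxylase, which stabilises collagen, and both hold HIF core letters in the windows printed above. P4ha1 read 9.36, 9.23, 9.11 and 9.22 in WT on day 3 and 10.57, 10.86, 10.80 and 10.69 on day 7. In KO it read 9.16, 9.77, 9.05 and 9.17 on day 3 and 10.58, 10.59, 10.16 and 10.23 on day 7. All arrays of day 7 exceeded all of day 3. The rise was 1.5 in WT (SE 0.135, adjusted p = 1.3e-08) and 1.10 in KO (SE 0.135, adjusted p = 7.4e-06), and both passed under all alternatives run. Fibroblast markers moved in the same interval. The mean of 10 such markers lay between 7.50 and 7.85 on the WT arrays of day 3 and between 8.71 and 9.75 on those of day 7, and between 7.89 and 7.99, then 8.52 and 9.06, in KO. Of the 10, 8 rose in WT and 3 in KO, where 14.2% and 6.25% of all genes rose. Col1a1, a collagen gene, was up by 1.97 in WT, and Thy1 fell there (change -1.16). The part of these markers in the rise of both genes was not tested.

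P4ha2 followed the same direction with a wider spread between clones. On day 7 it read 8.76 and 8.88 in KO E14, 7.90 and 8.16 in KO J1, 8.79 and 9.49 in WT J1, and 9.06 and 8.83 in WT V6.5. On day 3 it read 7.29, 7.67, 7.37 and 7.51 in KO against 7.57, 7.83, 7.24 and 7.39 in WT. KO J1 stood below the other 3 clones on day 7. The rise was 1.53 in WT (SE 0.180, adjusted p = 6.4e-07) and 0.97 in KO (SE 0.180, adjusted p = 0.00094). Without KO E14 the rise in KO did not pass (adjusted p = 0.27).

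On day 7, P4ha2 was lower in KO by 0.62 on the log2 scale (SE 0.212, adjusted p = 0.049). Col1a1 was also lower there (difference -1.65), as were 2 more of the 10 fibroblast markers, where 6.23% of all genes passed lower. Another of the 10, Thy1, passed higher in KO (0.92), where 10.1% of all genes passed higher. The rest of the 10 did not pass. The P4ha2 difference was -1.10 in the J1 pair (adjusted p = 0.0017) and -0.13 between KO E14 and WT V6.5. It did not pass without KO J1 (adjusted p = 0.65), WT J1 (0.13) or WT V6.5 (0.071), with dim genes left out (0.051) or with the arrays of a clone and day averaged (0.16). It was lost in 17 of the 24 runs without 1 array (0.052 to 0.16). P4ha1 differed by -0.34 on day 7 and did not pass (adjusted p = 0.16).

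Ndrg1, a stress-induced gene linked to differentiation, rose in WT from day 3 to day 7. It read 9.36, 9.08, 8.48 and 8.16 on day 3 and 9.56, 10.08, 10.21 and 9.87 on day 7, where every later array was above every earlier one. The rise was 1.16 (SE 0.244, adjusted p = 0.00069) and did not pass without WT V6.5 (adjusted p = 0.35). In KO its change was 0.71 (adjusted p = 0.067). Over all days Ndrg1 was higher in KO E14 than in KO J1 by 0.65.

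**Figure D4:**
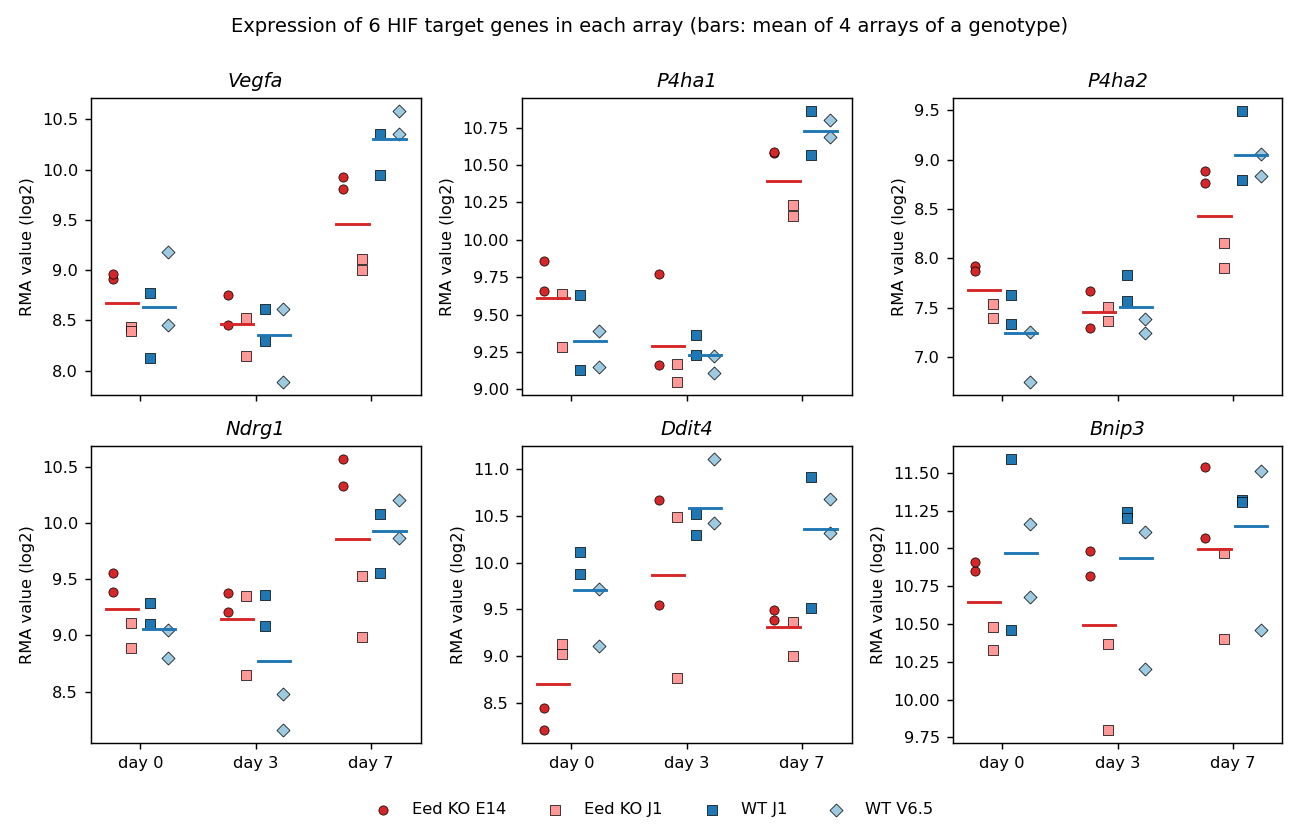
RMA values (log2) of Vegfa, P4ha1, P4ha2, Ndrg1, Ddit4 and Bnip3 on each of the 24 arrays by day; points are arrays, coloured by clone, and bars are the mean of the 4 arrays of a genotype. Vegfa, P4ha1 and P4ha2 were higher on day 7 than on day 3 in both genotypes, with KO J1 below the other clones on day 7.

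Ddit4 (REDD1), a stress-induced inhibitor of mTOR signalling, had the widest spread between arrays of a clone. On day 0 it read 8.44, 8.21, 9.13 and 9.02 in KO against 10.12, 9.88, 9.72 and 9.11 in WT. On day 3 it read 10.67, 9.55, 8.76 and 10.49 in KO against 10.52, 10.30, 11.11 and 10.43 in WT. On day 7 it read 9.49, 9.39, 9.0 and 9.36 in KO against 10.92, 9.51, 10.32 and 10.68 in WT. The genotypes did not overlap on day 7, where the highest KO array was just under the lowest WT array, that of WT J1 replicate 2.

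The Ddit4 differences of -1.0, -0.72 and -1.05 on days 0, 3 and 7 did not pass, and the adjusted p on day 7 was 0.077. In KO it rose from day 0 to day 3 by 1.17 (SE 0.338, adjusted p = 0.038), a call that was lost without KO E14 (adjusted p = 0.76) or WT V6.5 (0.067), with no block for the clone (0.053), with averaged arrays (0.06) and with trended, robust moderation (0.058). Leaving out either KO E14 array of day 0 (0.11 and 0.14), replicate 1 of KO E14 on day 3 (0.17) or replicate 2 of KO J1 on day 3 (0.14) lost it too. The remaining targets did not pass between genotypes on day 7. Bnip3, a mitophagy receptor, differed by -0.15, Ankrd37 by -0.55, Adm (adrenomedullin) by -0.06 and Car9 (carbonic anhydrase IX) by 0.09. Car9 stayed between 5.40 and 6.07 on all arrays, and it showed no call in any interval.

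Within line J1, where KO and WT share a line name, 3 members passed higher in KO on day 7 (Ldhb, Hk2 and Pdk1) and 6 lower (Aldoc, Egln1, P4ha2, Vegfa, Ankrd37 and Pgk1), against 14.2% of all genes, 8.68% higher and 5.56% lower. Of these, 5 differed by at least 2-fold, against 4.29% of all genes. The day 7 calls of Hk2, Pdk1, Aldoc, Egln1, Vegfa, Ankrd37 and Pgk1 in this pair were each lost in at least 1 run without 1 array. All 9 other HIF targets had a difference below 0 in that pair, with a median of -0.63 against -0.06 for all genes. Between KO E14 and WT V6.5, 4 of the 9 were above 0 (Adm 0.51, Ndrg1 0.41, Bnip3 0.32 and Car9 0.21) and 5 below, with a median of -0.13. Without WT J1 replicate 1 of day 7 the J1 count was 11, and without replicate 2 it was 5. On day 0, 1 member passed in the J1 pair, higher in KO (background 1.66%, with 1.01% higher). On day 3, 1 passed higher (Slc2a3) and 1 lower (Egln1, difference -0.98), where the background was 2.6%, with 1.59% higher and 1.01% lower. None of these 3 reached 2-fold, where 0.456% of all genes did on day 0 and 1% on day 3. The Egln1 call of day 3 in this pair was lost in 4 runs without 1 array (adjusted p 0.057 to 0.35).

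Lines of a genotype also differed. KO E14 was above KO J1 over all days in 6 members (Ndrg1 0.65, Vegfa 0.53, Ldhb 0.45, P4ha2 0.42, Slc2a3 0.30 and Pgk1 0.28), where 9.39% of all genes passed and 4.69% passed higher. In runs without 1 array, P4ha2 was lost 10 times, Vegfa 9, Slc2a3 6 and Pgk1 5. Of these 6, Ldhb and Slc2a3 were also higher in KO than in WT on at least 1 day. Vegfa and P4ha2 were lower in KO than in WT on day 7, and both of those calls were lost without KO J1. WT V6.5 was below WT J1 in Aldoc and Ankrd37 (differences -0.69 and -0.56) and above it in Pfkm (0.28), where 13.3% of all genes passed, 6.35% higher and 6.91% lower. Of these calls, Aldoc was lost in 9 runs without 1 array (adjusted p 0.053 to 0.077) and Pfkm in 6 (0.059 to 0.097). Between lines no call of a member reached 2-fold, where 0.191% of all genes did in KO and 0.426% in WT.

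Other genes of the pathway came from fixed lists that hold no member. Of 20 further glycolysis genes, 5 passed higher in KO on day 7 and 3 lower, with a median of -0.07 against -0.04 for all genes, of which 10.1% passed higher and 6.23% lower. Pdk4, the starvation-induced pyruvate dehydrogenase kinase, was higher by 1.5, Fbp2, a gluconeogenic phosphatase, by 1.18, and Tigar, a phosphatase that slows glycolysis, by 0.96. Pfkfb4, which makes the activator of phosphofructokinase, was lower, with a difference of -1.49.

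Of 32 further hypoxia-induced genes, 4 passed higher in KO on day 7 and 7 lower, beside the same 10.1% and 6.23% of all genes. Car12, a carbonic anhydrase, was higher by 1.12 and Angptl4, an inhibitor of lipoprotein lipase, by 0.96, and Ccng2 differed by -0.91. Pfkfb4 and Slc16a3, a lactate exporter, were lower and stand in both lists. Between day 3 and day 7, 12 of the 32 rose and 4 fell in WT, where 14.2% of all genes rose and 15.4% fell. In KO 5 rose and 1 fell, where 6.25% of all genes rose and 3.94% fell.

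Mitochondrial pathways were measured for comparison. Of 19 citrate cycle and pyruvate entry genes, 5 passed higher in KO on day 7, among them Mpc1, a subunit of the mitochondrial pyruvate carrier (1.27), Pcx, pyruvate carboxylase (1.19), and Idh3a, a subunit of isocitrate dehydrogenase (0.86). Of all genes, 10.1% passed higher on that day. In WT, 6 of the 19 fell from day 3 to day 7, and in KO 1 fell, where 15.4% of all genes fell in WT and 3.94% in KO. Of 22 respiratory chain genes, 4 passed higher in KO on day 7, led by Cox7a1 (1.09), and 1 passed lower. Of all genes, 16.3% passed in either direction, 10.1% higher and 6.23% lower. The lower one was Cox4i2, a hypoxia-induced subunit of cytochrome oxidase (-0.72). From day 3 to day 7 Ndufv1, Uqcrc1, Uqcrfs1, Cyc1 and Cox5a fell in WT, where 15.4% of all genes fell. Cox4i2 rose there, where 14.2% of all genes rose. In KO none of the 22 passed over that interval.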

How the data were processed

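The authors deposited log2 expression values per probe set, computed by RMA in Affymetrix Power Tools, per the submitters' processing notes. Versions, genome build and annotation: not given in the sources used here. RMA subtracts background, gives all arrays 1 distribution and summarises probes, which compresses differences of dim genes and removes any change in total RNA. The values (2.08 to 14.42) show base 2. The number of arrays, and of lines per genotype (2), limits the precision. Of 35556 probe sets, 21789 with 1 symbol gave 19938 genes (highest mean where several), 1621 had several symbols and 12146 were not listed.

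Differences were fitted with limma 3.58.1 and statmod 1.5.0 in R 4.3.3 as 6 genotype-by-day means over 24 arrays, with clone as a random block (correlation 0.161, 18 residual degrees of freedom). Comparisons within J1 and between lines used 12 means. P-values were adjusted over all genes. The fits were tested on simulated data. No low-value filter was used. All members could be named; full values went to those that passed with the largest differences, and other lists gave up to 4 genes a comparison. The members and lists were chosen with earlier results of these data known.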

Additional observations from a re-analysis of the deposited data

Results flagged for a closer look

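In 174 groups of 4 arrays of a genotype and day, 6 single arrays lay far from the other 3 by Dixon's test, where chance gives about 1 in 20 groups. Slc2a1 read 12.83 on WT J1 replicate 2 of day 7, with the others between 13.39 and 13.48. Tpi1 read 11.92 on KO J1 replicate 1 of day 7, with the others between 12.48 and 12.58. Pkm read 12.59 on WT V6.5 replicate 1 of day 0, with the others between 12.40 and 12.43. Bnip3 read 10.20 on WT V6.5 replicate 2 of day 3, with the others between 11.11 and 11.24. Adm read 6.83 on KO J1 replicate 2 of day 0, with the others between 7.04 and 7.07. P4ha1 read 9.77 on KO E14 replicate 2 of day 3, with the others between 9.05 and 9.17. These 6 arrays belong to 6 different groups of a clone and day.

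Between days 3 and 7, KO and WT changed unequally for 3 members by limma's test of the difference of changes, given as KO minus WT: Ldhb by 1.65, Slc2a3 by -0.84 and Eno2 by -0.62.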

How the results depend on the processing

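Beside the reported fit, 15 other settings were run and each of the 24 arrays was left out in turn. No call among the 57 passed member results changed sign. Slc2a3 on day 3 and Ldhb and Egln1 on day 7 (KO against WT) kept an adjusted p under 0.05 in every one of these runs that holds the comparison; under the 2-fold rule Slc2a3 (0.99) was not counted. Averaging the arrays of a clone and day kept 24 of 36 calls, and leaving out KO E14, KO J1, WT J1 or WT V6.5 lost 12, 8, 9 and 16 of 36.

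Counts of members passed moved by over 1.5 times as follows. Under the 2-fold rule, KO against WT gave 0, 0 and 3 on days 0, 3 and 7, WT gave 1 (days 0 to 3) and 5 (days 3 to 7), KO 1 and 1, the day 3 to 7 difference of changes 1, J1 0, 0 and 5, and each pair of lines 0. With no block, day 0 gave 2 and WT from day 0 to 3 gave 1. With averaged arrays, days 0, 3 and 7 gave 0, 1 and 4, and WT and KO from day 0 to 3 gave 1 each. Median centring gave 0 on day 0, and repeated quantile normalization gave 0 for J1 on day 0. Without KO E14, days 0 and 3 gave 0 and 1, and KO gave 1 in each interval. Without KO J1, day 7 gave 4. Without WT J1, day 0 gave 2, WT from day 0 to 3 gave 1 and the day 3 to 7 difference of changes 5. Without WT V6.5, day 0 gave 0, WT 1 and 7, KO from day 0 to 3 1, and the difference of changes 0.

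With single arrays left out, days 0, 3 and 7 gave 0 to 2, 1 to 3 and 4 to 9 (4 without KO J1 replicate 1 of day 7), WT 1 to 3 and 11 to 13, KO 1 to 4 and 3 to 6, the differences of changes 0 to 0 and 2 to 4, J1 0 to 1, 0 to 2 and 4 to 11, and the line pairs 2 to 8 (KO) and 1 to 6 (WT). Hif1a turned sign on day 0 (-0.01 centred, -0.08 without KO J1, -0.09 without WT J1, -0.02 to 0.10 without single arrays), on day 3 (-0.10 without WT J1) and on day 7 (0.08 without KO E14, 0.20 without WT V6.5, -0.13 to 0.04 without single arrays). In the J1 pair on day 3, leaving out single arrays gave -0.10 to 1.41 for Adm and -1.65 to 0.08 for Ddit4, the sign turning without KO J1 replicate 2 for Adm and replicate 1 for Ddit4. The cause was not tested. Over all genes, the difference of array 1 minus array 2 was correlated between 66 pairs of groups of a clone and day. The correlations ran from -0.40 to 0.47 (median 0.06), with 30 pairs over 0.1. They cannot tell whether the numbers pair samples in some of the groups. With the replicate number as a block, the J1 count on day 0 was 2, and 55 of 57 calls stayed (lost: Pfkp on day 3, adjusted p = 0.055, and P4ha2 on day 7, adjusted p = 0.056).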

Other observations

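Several members stood apart between the 2 arrays of a KO clone on day 3, where 27 genes in KO J1 and 76 in KO E14 were 2-fold apart. In KO J1, replicate 1 and replicate 2 read 8.27 and 9.44 for Aldoc, 7.01 and 8.52 for Adm, and 8.76 and 10.49 for Ddit4. In KO E14 they read 8.18 and 7.05 for Adm and 10.67 and 9.55 for Ddit4. No member was 2-fold apart between the 2 arrays of either WT clone on that day. Of all genes, 138 in WT J1 and 26 in WT V6.5 were 2-fold apart on day 3. On other days members were 2-fold apart in both genotypes. In KO J1 it was Aldoc on day 7 (gap 1.24). In WT J1 these were Bnip3 and Egln3 on day 0 (gaps 1.13 and 1.12) and Ddit4 and Pdk3 on day 7 (1.4 and 1.14). In WT V6.5 it was Bnip3 on day 7 (1.05).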
